A study of Mus musculus with 4 samples.

Results

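The genes described here are 10 that package histones in the oocyte and early embryo: both genes of the replacement histone H3.3 (H3f3a and H3f3b), the histone chaperone genes Hira, Asf1a, Nasp, Chaf1a, Chaf1b, Npm2 and Npm3, and H1foo, which encodes the linker histone of the oocyte. They were chosen by gene symbol, and each matched 1 of the 47445 gene identifiers in every deposited table. All 10 were among the 12390 genes that reached 1 FPKM (fragments scaled to transcript length and to the size of the library) in at least 2 of the 4 libraries. The study asked whether Uqcc3, an assembly factor of respiratory complex III, matters in the mouse embryo at the time its own genome becomes active.

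The 2 Uqcc3 siRNA libraries came from C57BL/6N embryos given 5 µM of an siRNA against Uqcc3 at 8 hpi, as the labels write the time. The 2 control libraries came from C57BL/6N embryos as well. The treatment protocol has them given a negative-control siRNA, also 5 µM and at 8 hpi, but the sample labels write their treatment as none, and which holds is open to doubt. The females were 8 weeks old, and embryos of normal morphology were taken at the late 2-cell stage, so embryos that looked abnormal were not profiled. How many embryos went into a library is not stated. No label ties the replicates to separate females or days, so p-values here measure spread between libraries that may be partly or wholly technical.

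Nucleosomes are built by chaperones that carry histones to DNA. Nasp shields soluble H3 and H4. Asf1a passes H3-H4 pairs on to the Hira complex, which places H3.3 independently of DNA replication, or to chromatin assembly factor 1 (Chaf1a and Chaf1b are its large and middle subunits), which places the replication-coupled H3 forms behind the replication fork. Eggs hold stores of these factors, since the sperm genome arrives packed in protamines and is repackaged with histones supplied by the egg, with H3.3 and Hira among the first to act. Npm2 is the nucleoplasmin of the oocyte, Npm3 is a relative that is not restricted to it, and H1foo takes the place of somatic linker histones until cleavage is under way.

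The libraries held about 11300000 and 11500000 fragments in siRNA replicates 1 and 2, and 16200000 and 18100000 in control replicates 1 and 2, as implied by the authors' error bounds of genes with 1 annotated transcript. Uqcc3 itself stood at 23.7 and 19.8 FPKM with siRNA, against 147 and 211 FPKM in controls. siRNA replicate 2 stood apart: 9771 genes reached 1 FPKM in it, against 11818 to 12202 in the other 3 libraries, and across genes its log2 values correlated with those of the others at 0.624 to 0.651, where the best correlation of each other library was 0.872 or 0.875. Of 2476 genes at 20 FPKM or more in each of the other 3 libraries, 112 were under 1 FPKM in siRNA replicate 2. The like counts were 0 of 2032 for siRNA replicate 1, and 2 of 1828 and 2 of 1861 for control replicates 1 and 2. All 6 markers of 2-cell embryos and all 5 of oocytes were detected in every library. The 2-cell markers summed to 751 and 399 FPKM with siRNA, against 1169 and 1438 FPKM in controls, and the oocyte markers to 237 and 304 FPKM, against 197 and 224 FPKM. The 8 cumulus and granulosa markers summed to 3.78 and 0.660 FPKM with siRNA, against 0.401 and 0.0357 FPKM in controls, with Amh, Fshr and Star at 0 in all 4 libraries. The 4 sperm markers summed to 17.6 and 0.191 FPKM with siRNA, against 5.34 and 2.11 FPKM in controls, the 5 blood markers to 16.6 and 0.547 FPKM, against 18.7 and 28.5 FPKM, and the 6 markers of blastocyst lineages to 5.06 and 0.195 FPKM, against 2.30 and 0.612 FPKM. Among the blood markers, Hba-a1 and Hba-a2 made up the sums outside siRNA replicate 2, while Hbb-bs was at 0 in all 4 libraries. Hbb-bt and Ptprc were at 0 except in siRNA replicate 2 (0.139 and 0.408 FPKM). Of the sperm markers, Prm2 stood at 12.3 and 0 FPKM with siRNA, against 5.34 and 0.108 FPKM in controls. Tnp1 stood at 5.01 and 0 FPKM, against 0 and 2.00 FPKM. Prm1 was above 0 only in siRNA replicate 1 (0.266 FPKM) and Tnp2 only in siRNA replicate 2 (0.191 FPKM). The part of these cells in the results was not tested.

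The genes for H3.3 and for the chaperones Hira and Asf1a had siRNA values that both lay below both control values, while Chaf1a, near the detection limit, lay higher, and the other 5 genes had groups that overlapped. None of the 10 passed an adjusted p of 0.05 in limma, and neither did any other gene (0% of 12390 genes, smallest adjusted p = 0.564). The 4 of 10 genes whose siRNA libraries both lay below both controls compare with 30.0% of all tested genes, and the 1 of 10 above with 8.60%. The background moves with the scaling: with TPM, median-of-ratios and quantile scaling 21.4%, 19.8% and 18.7% of all tested genes lay below and 13.2%, 16.0% and 16.5% above, while 4, 3 and 4 of the 10 genes lay below and 1 above in each. Without siRNA replicate 2, 6 of the 10 genes lay below both controls, against 48.3% of all tested genes, and without siRNA replicate 1 it was 6, against 50.5%. At an unadjusted p under 0.05, 1 of the 10 genes, H3f3a, was lower and 0 were higher, against 5.21% and 0.743% of all tested genes (646 and 92 genes, which became 255 and 207 with quantile scaling). The unadjusted p of H3f3a was 0.0997, 0.110 and 0.135 with TPM, median-of-ratios and quantile scaling, 0.0917 with no abundance trend, and 0.201 and 0.228 with control replicate 1 or 2 left out. The median log2 difference, siRNA minus control on the log2(FPKM + 1) scale, was -0.47 over the 10 genes and -0.39 over all tested genes. The gap of -0.084 between these medians became -0.47 without siRNA replicate 1, -0.44 without siRNA replicate 2, -0.41 without control replicate 1 and 0.091 without control replicate 2. With no filter on low values the gap was -0.41, and with a filter at 5 FPKM it was -0.29. With TPM, median-of-ratios and quantile scaling it was -0.036, -0.066 and -0.075. FPKM values do not add up to the same total in each library. They summed to 596011 and 436400 in siRNA replicates 1 and 2, against 682974 and 695428 in control replicates 1 and 2. With TPM, which gives each library the same total, the median of the 10 genes moved from -0.47 to -0.12. For all tested genes the median moved from -0.39 to -0.085 with TPM, and it was -0.083 with median-of-ratios and 0.012 with quantile scaling. Fewer cells of a type and less RNA per cell cannot be told apart in FPKM or TPM values.

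**Figure D1:**
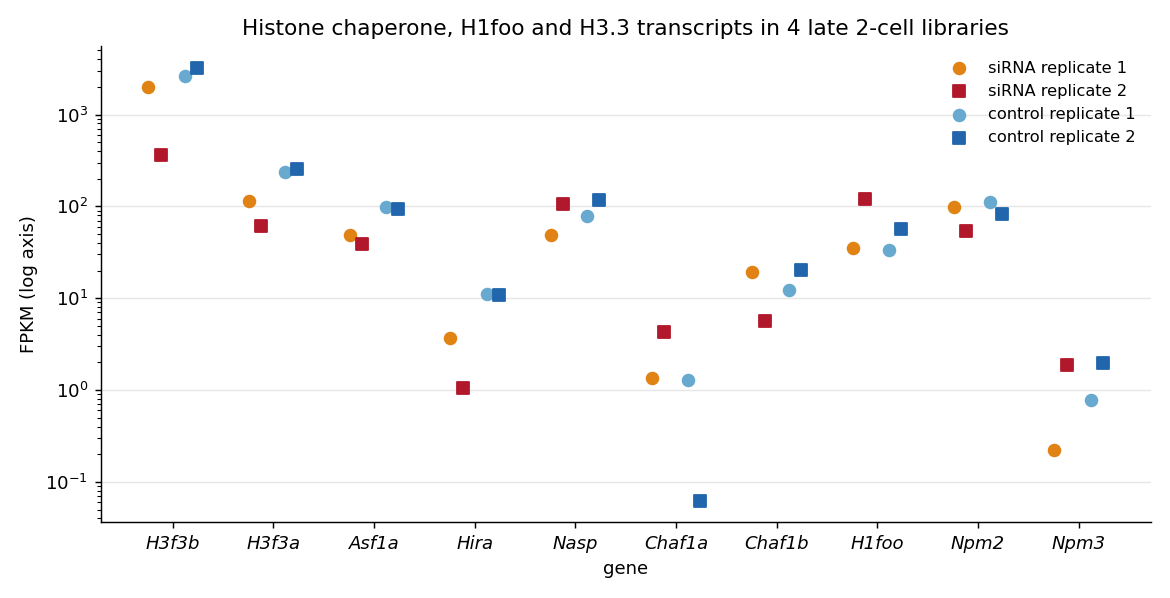
FPKM of each of the 10 genes (log axis) in the 2 siRNA libraries (orange and red) and the 2 control libraries (light and dark blue), 1 point per library. For H3f3b, H3f3a, Asf1a and Hira both siRNA points lie under both control points, and for H1foo siRNA replicate 2 stands highest at 122 FPKM.

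H3f3b and H3f3a encode the same H3.3 protein from separate genes, and unlike the histone genes used in replication they have introns and polyadenylated transcripts, so the oligo(dT) primer captures them. H3f3b lies on chromosome 11 from 116021912 to 116027962 and H3f3a on chromosome 1 from 180800832 to 180813943, both on the minus strand (GRCm38, GENCODE M21). Their promoters are given because both genes stood under both controls with siRNA, next to those of Asf1a and Hira, which did so as well, and of H1foo, which did not. Each line gives the 250 bases before a transcription start in RefSeq (GRCm38.p6), 5′ to 3′ on the gene's strand (RefSeq lists H1foo under the symbol H1f8), with capitals marking CCAAT and TATAAA boxes read on either strand (as ATTGG and TTTATA on the other).
H3f3b: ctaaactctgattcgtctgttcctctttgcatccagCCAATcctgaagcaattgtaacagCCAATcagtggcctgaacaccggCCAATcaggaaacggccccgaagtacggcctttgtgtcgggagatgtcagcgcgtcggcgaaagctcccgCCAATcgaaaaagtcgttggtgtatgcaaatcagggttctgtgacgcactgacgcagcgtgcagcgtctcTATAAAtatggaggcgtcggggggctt
H3f3a: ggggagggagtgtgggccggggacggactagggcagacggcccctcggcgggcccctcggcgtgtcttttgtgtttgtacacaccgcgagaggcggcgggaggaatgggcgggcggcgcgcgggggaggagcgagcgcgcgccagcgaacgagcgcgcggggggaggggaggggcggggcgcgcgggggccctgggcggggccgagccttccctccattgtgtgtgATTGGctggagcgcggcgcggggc
Asf1a: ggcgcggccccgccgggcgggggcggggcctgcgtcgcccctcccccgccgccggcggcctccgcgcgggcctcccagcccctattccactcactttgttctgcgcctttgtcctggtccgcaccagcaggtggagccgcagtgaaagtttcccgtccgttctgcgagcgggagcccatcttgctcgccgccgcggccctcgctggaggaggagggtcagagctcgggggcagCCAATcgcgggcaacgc
Hira: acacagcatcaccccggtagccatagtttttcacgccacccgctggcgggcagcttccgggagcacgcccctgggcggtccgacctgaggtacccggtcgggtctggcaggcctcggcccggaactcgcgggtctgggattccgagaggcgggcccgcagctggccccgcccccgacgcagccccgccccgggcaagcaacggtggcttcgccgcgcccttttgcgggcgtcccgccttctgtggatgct
H1foo: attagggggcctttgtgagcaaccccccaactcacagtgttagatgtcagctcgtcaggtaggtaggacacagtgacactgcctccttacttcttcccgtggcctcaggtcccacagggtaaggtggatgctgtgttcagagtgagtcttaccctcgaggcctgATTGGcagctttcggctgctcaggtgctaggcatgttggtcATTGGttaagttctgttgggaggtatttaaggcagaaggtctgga

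These windows lie at chr11:116024505-116024754 on the minus strand, chr1:180813606-180813855 on the minus strand, chr10:53596711-53596960 on the plus strand, chr16:18876500-18876749 on the plus strand and chr6:115944681-115944930 on the plus strand. The H3f3b promoter holds 4 CCAAT boxes and 1 TATAAA box. Those of H3f3a and Asf1a hold 1 CCAAT box each, that of H1foo holds 2, and that of Hira has neither motif in these letters. Of the 32851 windows of the same length, 33.8% hold CCAAT and 12.4% hold TATAAA. The windows of H3f3b, H3f3a and Asf1a overlap the span of the gene in GENCODE M21. Of the 10 genes, 9 matched a window. Among the 9, 6 hold CCAAT and 1 holds TATAAA. The CCAAT box was thus present upstream of H3f3b, H3f3a and Asf1a but not of Hira. It was also present upstream of H1foo, Nasp and Chaf1a, which did not lie below both controls. The windows printed were chosen by the levels of their genes, and whether either motif bears on those levels was not tested.

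H3f3b was the most abundant of the 10 transcripts in every library. It stood at 1975 and 366 FPKM in siRNA replicates 1 and 2, against 2630.1 and 3246 FPKM in control replicates 1 and 2. Both siRNA values were under both controls, and siRNA replicate 2 was far lower than siRNA replicate 1. The means were 1171 ± 1138 FPKM with siRNA and 2938 ± 435 FPKM in controls (SD, n = 2 each), and the log2 difference was -1.78 (SE 0.86, limma adjusted p = 0.745). The 2 siRNA libraries differed from each other by 2.43 on the log2 scale, more than the group difference, and siRNA replicate 1 was at -0.56 from the control mean, where the median of all genes in that library was -0.30. After median-of-ratios scaling the groups of H3f3b overlapped, with a log2 difference of -1.39.

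H3f3a stood at 114 and 61.8 FPKM with siRNA, against 235 and 255 FPKM in controls. The siRNA values were 46.5% and 25.2% of the control mean, and no siRNA value came near the controls, which differed from each other by 0.12 on the log2 scale. The log2 difference was -1.53 (SE 0.62), with an unadjusted p of 0.0390 and an adjusted p of 0.745 in limma. With siRNA replicate 1 left out, where siRNA replicate 2 is the lone siRNA library and is assumed to vary as the controls do, H3f3a and H3f3b passed in limma (adjusted p = 0.0357 and 0.0220). In that comparison 1477 of all 12390 genes passed too. With siRNA replicate 2 left out 0 of the 10 genes passed. H3f3a also overlaps H3f3aos by 168 bases on the opposite strand, and H3f3aos stood at 3.52 and 0 FPKM with siRNA, against 1.60 and 3.33 FPKM in controls.

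The genome carries processed copies of H3f3a that can take or lend reads. H3f3c, on chromosome 2 from 119665626 to 119666036, is 411 bases long in GENCODE M21 and matches the H3f3a open reading frame at 407 of 411 positions (99.0%). H3f3a-ps2, on chromosome 16 from 91114189 to 91114599, matches it at 406 of 411 positions (98.8%). The open reading frames of H3f3a and H3f3b match each other at 316 of 411 positions (76.9%), although they encode the same protein. H3f3c stood at 24.6 and 15.2 FPKM with siRNA, against 51.8 and 72.3 FPKM in controls, and H3f3a-ps2 at 11.7 and 5.43 FPKM with siRNA, against 26.7 and 25.8 FPKM in controls. H3f3c was at 21.6% and 24.5% of the H3f3a level with siRNA, against 22.0% and 28.3% in controls, and H3f3a-ps2 to 10.2% and 8.79%, against 11.4% and 10.1%. How far their values are reads of H3f3a itself was not tested, so the level of each is uncertain.

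**Figure D2:**
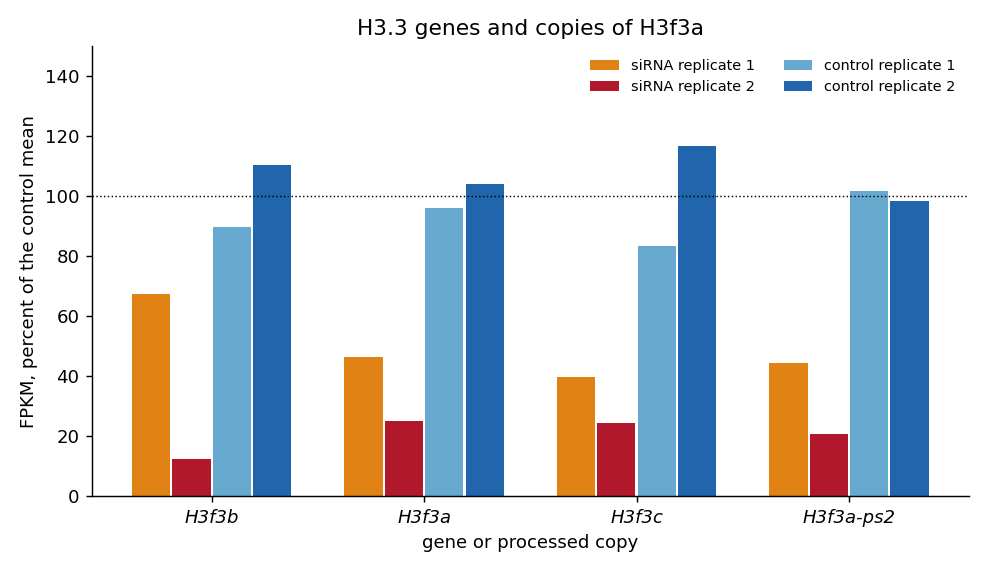
FPKM of H3f3b, H3f3a and 2 processed copies of H3f3a as a percent of each one's control mean (dotted line at 100), with 1 bar per library. Bars of siRNA replicate 1 stand at 67.2% for H3f3b and 46.5% for H3f3a, and those of siRNA replicate 2 at 12.5% and 25.2%.

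The balance between the 2 genes differed between the siRNA libraries. H3f3b made up 94.5% and 85.6% of the summed FPKM of both genes in siRNA replicates 1 and 2, against 91.8% and 92.7% in controls. The share was above both controls in one siRNA library and below both in the other, so the mean difference of -2.20 percentage points (90.1 ± 6.35% with siRNA, 92.3 ± 0.647% in controls, SD, n = 2 each) went with no common direction (exact permutation test, two-sided p = 1, where 2 libraries against 2 cannot give less than 0.333). The sum of both genes was 2089 and 428 FPKM with siRNA, against 2865 and 3501 FPKM in controls, with both siRNA libraries below both controls (exact permutation test, two-sided p = 0.333).

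Hira, which places H3.3, showed the lowest siRNA level relative to controls of the 10 genes. The gene spans chromosome 16 from 18877037 to 18970309 on the plus strand (GENCODE M21). It stood at 3.71 and 1.06 FPKM with siRNA, against 11.2 and 10.9 FPKM in controls. The controls were almost equal, and the authors' bounds for the siRNA libraries (2.75 to 4.68 and 0.468 to 1.66 FPKM) did not reach those of the controls (9.98 to 12.5 and 9.70 to 12.0 FPKM). Such bounds describe the error within each library and do not measure spread between libraries. The mean was 21.6% of that of the controls, and the log2 difference was -1.95 (SE 0.99, limma adjusted p = 0.745). The limma interval, which pools information across genes and both groups, ran from -4.24 to 0.33. Relative to the all-gene median of the same library, Hira was at -1.05 in the first siRNA replicate and at -1.97 in the second. Gm28539, a protein-coding gene model, overlaps Hira on the same strand by 79211 bases and was at or near 0 FPKM in every library. How reads were divided between these gene models was not tested.

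Asf1a, the H3-H4 chaperone that serves Hira, lies on chromosome 10 from 53596757 to 53609225 on the plus strand. It stood at 48.3 and 39.1 FPKM with siRNA, against 98.7 and 92.8 FPKM in controls. Here the libraries of each group were close together, and the groups were well apart. The means were 43.7 ± 6.53 FPKM with siRNA and 95.8 ± 4.15 FPKM in controls (SD, n = 2 each), and the log2 difference was -1.12 (SE 0.62, limma adjusted p = 0.745). Relative to the same medians, Asf1a was at -0.67 and -0.70, the closest match between the siRNA libraries among the 10 genes. Mcm9 overlaps Asf1a on the opposite strand by 12469 bases, the whole span of Asf1a. Mcm9 stood at 1.47 and 12.5 FPKM with siRNA, against 2.35 and 3.34 FPKM in controls, below both controls in one siRNA library and above both in the other. How reads were divided between Asf1a and Mcm9 was not tested. The ratio of Asf1a to Hira was 13.0 and 36.8 with siRNA, against 8.78 and 8.54 in controls.

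**Figure D3:**
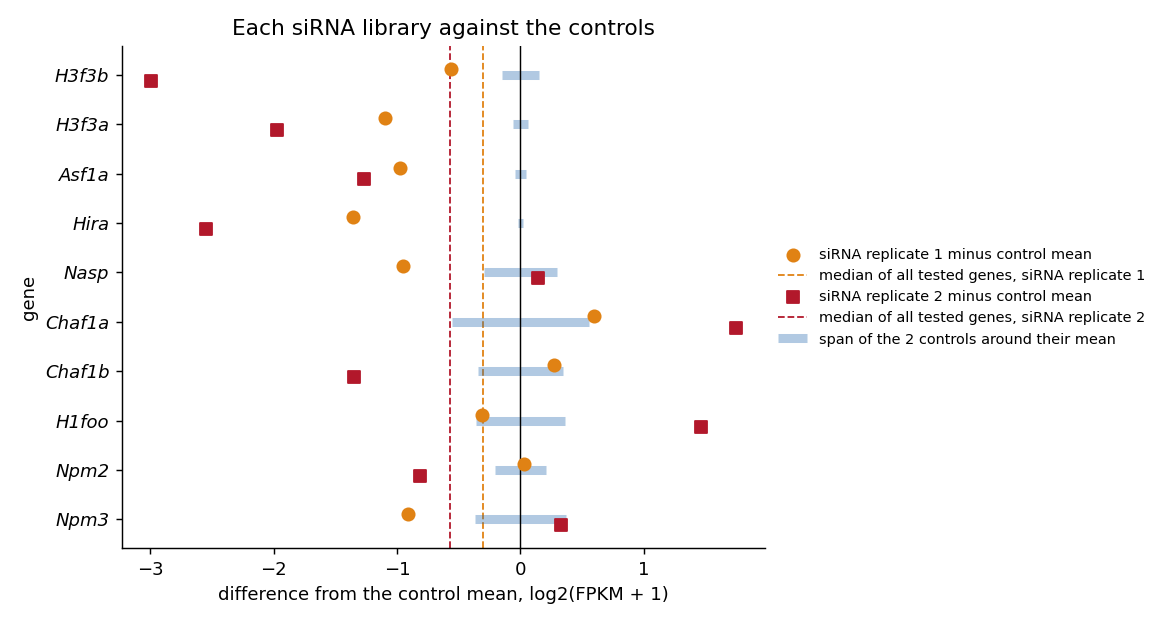
Difference of siRNA replicate 1 (orange circles) and siRNA replicate 2 (red squares) from the control mean on the log2(FPKM + 1) scale, for each of the 10 genes. Pale blue bars span the 2 controls and dashed lines mark the medians of all tested genes, -0.30 in siRNA replicate 1 and -0.57 in siRNA replicate 2. Asf1a, Hira and H3f3a lie left of both lines in both libraries, while H1foo is at -0.31 in one and 1.46 in the other.

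Lower values with siRNA were common among genes of like abundance. Of the 815 tested genes with a mean of 100 to 1000 FPKM over the 4 libraries, 52.0% had both siRNA libraries below both controls, and the median log2 difference was -0.84. H3f3a, at a mean of 167 FPKM, belongs to this range. Of the 49 genes at 1000 FPKM or more, among them H3f3b, 49.0% lay below, with medians of -0.21 in siRNA replicate 1 and -1.48 in siRNA replicate 2. Among the 4485 genes between 10 and 100 FPKM, to which Asf1a belongs with a mean of 69.7 FPKM, 34.5% lay below, with medians of -0.49 and -0.39. Below 10 FPKM, where Hira falls with a mean of 6.72 FPKM, 24.5% of 7041 genes lay below, with medians of -0.14 and -0.59.

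Nasp, on chromosome 4 from 116601052 to 116627941 on the minus strand, stood at 48.9 and 106 FPKM with siRNA, against 77.7 and 118 FPKM in controls. The groups overlapped, and siRNA replicate 1 was the lowest of the 4 libraries. The log2 difference was -0.41 (SE 0.68, limma adjusted p = 0.897), with an interval from -1.98 to 1.16. Nasp was thus lower than both controls in siRNA replicate 1, where Asf1a was lower as well, and between them in siRNA replicate 2.

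The 2 subunits of chromatin assembly factor 1 had unlike patterns. Chaf1a, on chromosome 17 from 56040439 to 56072289 on the plus strand, stood at 1.37 and 4.26 FPKM with siRNA, against 1.30 and 0.0625 FPKM in controls. Both siRNA values were above both controls, but siRNA replicate 1 and control replicate 1 had overlapping bounds (0.956 to 1.78 and 0.930 to 1.67 FPKM), and the authors' lower bound for control replicate 2 was 0. The log2 difference was 1.17 (SE 0.87, limma adjusted p = 0.772). Chaf1b, on chromosome 16 from 93883901 to 93906115 on the plus strand, stood at 19.4 and 5.64 FPKM with siRNA, against 12.3 and 20.4 FPKM in controls. The groups overlapped, siRNA replicate 2 was lowest, and the log2 difference was -0.54 (SE 0.91, limma adjusted p = 0.899). Chaf1b exceeded Chaf1a in every library. Chaf1a overlaps Ubxn6 on the opposite strand by 5245 bases, and Ubxn6 stood at 3.81 and 11.0 FPKM with siRNA, against 3.90 and 4.13 FPKM in controls, with siRNA replicate 2 highest for both genes.

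H1foo, the oocyte linker histone, lies on chromosome 6 from 115944938 to 115950236 on the plus strand. It stood at 34.9 and 122 FPKM with siRNA, against 33.6 and 56.1 FPKM in controls. siRNA replicate 1 lay between the controls and siRNA replicate 2 was above all other libraries, so the groups overlapped. The means were 78.2 ± 61.3 FPKM with siRNA and 44.8 ± 15.9 FPKM in controls (SD, n = 2 each), and the log2 difference of 0.58 (SE 0.79, limma adjusted p = 0.870) turned to -0.31 without siRNA replicate 2. Among the oocyte markers, Gdf9, an oocyte growth factor, had a like pattern at 52.1 and 177 FPKM with siRNA, against 44.3 and 69.8 FPKM in controls. Zp3, a zona pellucida protein, did not, at 32.4 and 5.39 FPKM with siRNA, against 54.6 and 66.4 FPKM in controls. Bmp15 stood at 120 and 88.5 FPKM with siRNA, against 68.4 and 74.5 FPKM in controls. Nlrp5 stood at 14.1 and 28.6 FPKM with siRNA, against 11.3 and 6.19 FPKM in controls. Of the 5 oocyte markers, 2 (Bmp15 and Nlrp5) thus had both siRNA libraries above both controls and 1 (Zp3) had both below. The groups of Gdf9 and Ooep overlapped.

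Npm2, the oocyte nucleoplasmin, lies on the minus strand of chromosome 14 from 70647302 to 70659244. Its level was 97.5 and 53.8 FPKM with siRNA, against 110.3 and 82.8 FPKM in controls. siRNA replicate 1 lay between the controls and siRNA replicate 2 below them, with a log2 difference of -0.39 (SE 0.65, limma adjusted p = 0.895). It overlaps Xpo7 on the same strand by 4999 bases, and Xpo7 stood at 2.22 and 7.81 FPKM with siRNA, against 1.66 and 1.89 FPKM in controls. Npm2 and H1foo, both products of the oocyte genome, thus stood on opposite sides of the controls in siRNA replicate 2, and the ratio of Npm2 to H1foo was 2.79 and 0.443 with siRNA, against 3.28 and 1.48 in controls. Npm3, on chromosome 19 from 45747734 to 45749591 on the minus strand, stood at 0.222 and 1.89 FPKM with siRNA, against 0.785 and 1.97 FPKM in controls. At this level the authors' lower bound reached 0 in siRNA replicate 1, the groups overlapped, and no difference was detectable (log2 difference -0.29, SE 0.81, limma adjusted p = 0.942). The antisense transcript Gm15491, which overlaps Npm3 by 84 bases, was far higher, at 21.6 and 88.8 FPKM with siRNA, against 17.3 and 13.9 FPKM in controls, and how much of the Npm3 value comes from its reads was not tested.

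The order of levels per length in the siRNA means was H3f3b, H3f3a, H1foo, Nasp, Npm2, Asf1a, Chaf1b, Chaf1a, Hira and Npm3, from 1171 to 1.06 FPKM. In the control means it was H3f3b, H3f3a, Nasp, Npm2, Asf1a, H1foo, Chaf1b, Hira, Npm3 and Chaf1a, from 2938 to 0.681 FPKM. Nasp, Npm2 and Asf1a, at 97.8 ± 28.4, 96.5 ± 19.5 and 95.8 ± 4.15 FPKM in controls (SD, n = 2 each), did not differ from one another beyond their spread. The siRNA means of H3f3a, H1foo, Nasp and Npm2 lay between 75.6 and 87.9 FPKM, closer together than the spread of each between libraries. H3f3a was still above Npm2 in both siRNA libraries, at 114 against 97.5 FPKM and 61.8 against 53.8 FPKM. The 10 genes together took 0.393% and 0.174% of all summed FPKM with siRNA, against 0.470% and 0.559% in controls. H3f3b made up 84.3% and 48.1% of that sum with siRNA, against 81.9% and 83.6% in controls.

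By distance between log2 values centred over the 4 libraries, the nearest of 6231 genes to H1foo were Rpl8, Pcbp2 and Prmt3 (distances 0.043, 0.043 and 0.082), and 864 genes lay within a distance of 1. Nearest to H3f3b were Hagh, Idh3a and Pdk3 (0.139, 0.153 and 0.164), with 670 genes within 1. With 4 libraries such likeness is a description of these profiles.

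Lists of other chaperones and of replacement histones gave no call in limma. In a list of 17 other H3.3 and H3-H4 chaperones and partners, 0 passed in limma in either direction, 4 had both siRNA libraries below both controls and 1 had both above, against 30.0% and 8.60% of all tested genes, and the median log2 difference was 0.020. The siRNA libraries went apart, with a median of -0.20 and 13 of 17 genes below the control mean in siRNA replicate 1, and a median of 0.67 and 5 of 17 below it in siRNA replicate 2. Dek, an H3.3-binding protein, stood at 238 and 253 FPKM with siRNA, against 308 and 390 FPKM in controls. Rbbp7, a histone-binding protein closely related to the small subunit of chromatin assembly factor 1, had 218 and 128 FPKM with siRNA, against 257 and 494 FPKM in controls. Asf1b, the paralog of Asf1a, stood at 162 and 68.6 FPKM with siRNA, against 268 and 239 FPKM in controls, and both Asf1 genes were lower in both siRNA libraries. The ratio of Asf1a to Asf1b was 0.298 and 0.569 with siRNA, on either side of the 0.368 and 0.388 in controls. Ipo4, an importin that carries H3-H4 into the nucleus, stood at 27.9 and 112 FPKM with siRNA, against 18.5 and 1.12 FPKM in controls, with a log2 difference of 3.15 (SE 1.21, limma adjusted p = 0.745). The controls themselves differed by 3.20 for Ipo4.

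Of 11 nucleoplasmin-related and H2A-H2B chaperones, 10 were tested and 0 passed in limma, with 2 below and 2 above both controls in both siRNA libraries (all tested genes, 30.0% and 8.60%) and a median log2 difference of 0.24. The 2 siRNA libraries went apart here too, with medians of -0.58 in siRNA replicate 1 and 0.99 in siRNA replicate 2. Npm1, the widely expressed nucleophosmin, stood at 226 and 596 FPKM with siRNA, against 426 and 251 FPKM in controls. Anp32e, a chaperone that removes H2A.Z, had 38.4 and 144 FPKM with siRNA, against 57.9 and 62.6 FPKM in controls. Anp32b, of the same family, had 23.9 and 214 FPKM, against 38.9 and 25.7 FPKM. In each of these genes siRNA replicate 1 lay below both controls and siRNA replicate 2 above both.

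Of 10 replacement histone variants, 8 were tested, with H2afy2 listed at 0 in all 4 libraries and H1fx too low to test, and 0 passed in limma, and 6 had both siRNA libraries below both controls and 0 above, where all tested genes gave 30.0% and 8.60%, with a median log2 difference of -1.26. The medians were -1.05 in siRNA replicate 1 and -1.22 in siRNA replicate 2, but single genes differed between these libraries: H2afz was at -0.32 and -2.04 from its control mean, H1f0 at -0.81 and 0.91 and H2afy at 0.58 and -0.64. H2afv, an H2A.Z gene, stood at 291 and 430 FPKM with siRNA, against 943 and 890 FPKM in controls, a log2 difference of -1.37 (SE 0.58, limma adjusted p = 0.745). Cenpa, the centromeric H3, had 156 and 152 FPKM with siRNA, against 384 and 394 FPKM in controls, with a log2 difference of -1.33 (SE 0.57, limma adjusted p = 0.745). H2afj, an H2A variant, had 49.2 and 34.5 FPKM with siRNA, against 139 and 125 FPKM in controls, with a log2 difference of -1.65 (SE 0.62, limma adjusted p = 0.745). These 3 genes and H3f3c, which is a copy of H3f3a, had unadjusted p-values under 0.05 (0.0479, 0.0472, 0.0291 and 0.0499), where 5.21% of all tested genes were lower by this rule. H3f3c is also among the 6 genes below both controls, and its reads may be those of H3f3a. The share of all genes below both controls was higher among abundant genes. It was 52.0% at a mean of 100 to 1000 FPKM, the range of H2afv and Cenpa. At 10 to 100 FPKM, the range of H2afj, H2afz and H3f3c, it was 34.5%. The list was drawn up with earlier results of these data known. Its counts, median and unadjusted p-values, and the counts and medians of the other lists, are on the FPKM scale. With TPM, median-of-ratios and quantile scaling the share of all tested genes below both controls was 21.4%, 19.8% and 18.7%. How many genes of these lists stayed below with those scalings was not examined.

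**Figure D4:**
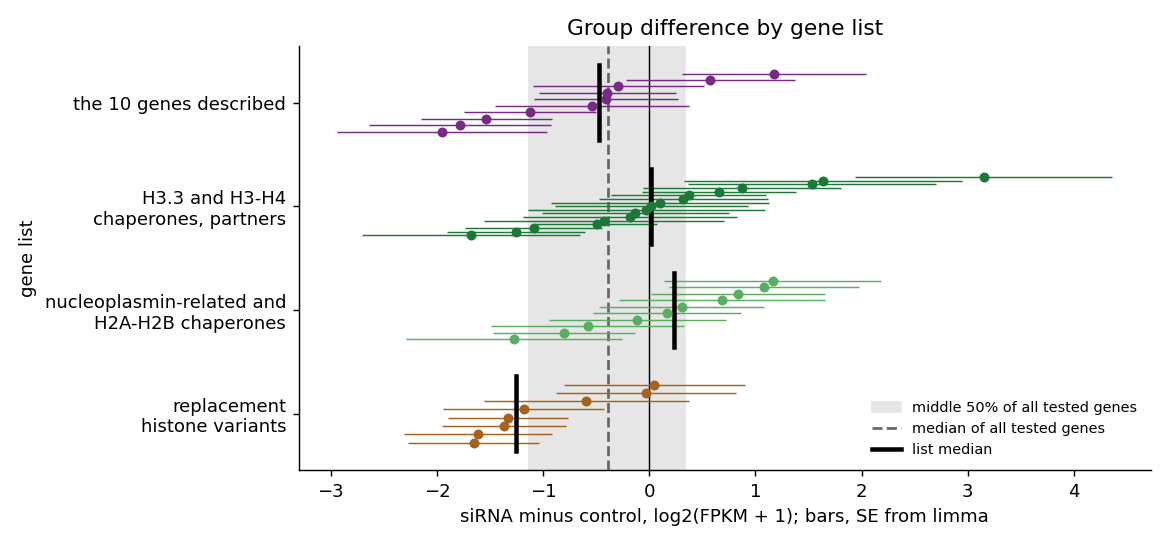
Group difference, siRNA minus control on the log2(FPKM + 1) scale with the limma SE, for every tested gene of 4 lists, with each list's median as a black line. The grey band holds the middle 50% of all tested genes, -1.13 to 0.33. The list medians are -0.47 for the 10 genes described, 0.020 and 0.24 for the lists of other chaperones and -1.26 for the replacement variants.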

How the data were processed

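Polyadenylated RNA was amplified with 18 cycles of cDNA PCR and 15 of library PCR and read in pairs of 150 bases, per the labels' protocols. The authors deposited 1 table of FPKM values with lower and upper bounds per library, per the file headers. Tools listed in the submitters' processing notes are Cufflinks 2.2.1 and Cuffdiff 2.2.1, STAR 2.7.3a, Trim Galore 0.6.5 and SAMtools 1.7, with the build mm10. Neither the annotation release nor the use of strand in counting is stated. Rows of one gene identifier were summed (each of the 10 genes has 1 row), and 2 genes marked as failed were left out.

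Genes that reached 1 FPKM in 2 or more libraries were transformed to log2(FPKM + 1), which understates changes of low genes, and compared in limma 3.58.1 under R 4.3.3, two-sided, with a prior that follows abundance and Benjamini-Hochberg adjustment over all 12390 genes (threshold 0.05). Replicates were numbered in accession order. Depth was taken from the authors' bounds and covers counting error only. Without their version, 99.1% of identifiers, and all 10 genes, matched GENCODE M21, the source of the positions.

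All 10 genes and Uqcc3 are named. From the other lists the text names the 3 tested genes with the highest mean and those with an unadjusted p under 0.05, and for H1foo and H3f3b the 3 nearest genes with a mean of at least 5 FPKM, leaving out predicted genes. Gdf9, Zp3 and the other named markers, Mcm9, Ubxn6, Xpo7, Gm15491, H2afz, H1f0, H2afy, H3f3aos and H3f3a-ps2 were named after their values were seen. The members and lists were chosen with earlier results of these data known. Alternatives were other pseudocounts, filters, scalings and variance priors, a block, the highest row per gene, and leaving out each library.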

Additional observations from a re-analysis of the deposited data

How the results depend on the processing

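Under all 13 alternatives Asf1a, Hira, H3f3a and H3f3b kept lower values with siRNA (log2 differences of -1.27 to -0.69, -2.55 to -1.35, -1.97 to -1.06 and -2.99 to -0.56). As their groups did not overlap, leaving out a library or another pseudocount could not turn the sign. Filters, the variance prior, the block and the highest row left the differences unchanged. Only TPM, median-of-ratios and quantile scaling could have turned the sign. With these the differences were -0.70, -0.74 and -0.69 for Asf1a, and -1.77, -1.62 and -1.46 for Hira. For H3f3a they were -1.11, -1.15 and -1.06, and for H3f3b -1.35, -1.39 and -1.29. The count of the 10 genes with both siRNA libraries below both controls was 4 in each setting with all libraries except median-of-ratios scaling, where it was 3 without H3f3b, and the share of all genes went from 18.7% to 34.8%. With a library left out it was 5 to 7, beside 41.9% to 50.5% of all genes. The count above both was 0 with a filter at 5 FPKM, which drops Chaf1a (all genes, 6.95%), and 1 to 2 with a library left out (all genes, 16.4% to 32.0%). TPM, median-of-ratios and quantile scaling moved the median of all genes by 0.30, 0.31 and 0.40, and that of the 10 genes to -0.12, -0.15 and -0.063. It was -0.83 with a filter at 5 FPKM, which leaves 8 of the 10 genes, and -1.04 to -0.40 with a library left out.

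Signs turned for Npm2 with TPM (0.034) and quantile scaling (0.041), for Nasp with the same (0.022 and 0.10), and for Npm3 with quantile scaling (0.13). With each library left out in turn the log2 difference ranged from -0.31 to 1.46 for H1foo, -0.82 to 0.029 for Npm2, -0.91 to 0.33 for Npm3, -0.95 to 0.14 for Nasp and -1.35 to 0.27 for Chaf1b. The cause was not tested. Genes called ranged from 0 to 1477, members called from 0 to 2 and genes of the other lists called from 0 to 6, each highest with siRNA replicate 2 alone against the controls.

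The labels carry no replicate numbers. The names of the deposited tables share numbers between groups, but deviations of libraries with the same number correlated at 0.058 over genes. A replicate block on these numbers called 1 gene and 0 of the 10 genes.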
